A study of Mus musculus with 8 samples.

Results

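Mitochondrial ribosomal proteins are the nuclear-encoded protein components of the mitoribosome, and they were taken here as every non-control probe whose gene name in the array files was Mrpl or Mrps followed by a number and at most 1 letter. The rule found 124 of 56605 probes, which belonged to 78 genes of the 22509 tested. Names alone chose the probes, but the family was taken up with earlier results of these data known. The arrays held RNA of CD11b+ cells, the brain cells that carry the integrin subunit found on microglia and other myeloid cells, pulled out with magnetic beads from male C57BL/6N mice aged 7 days. One group of mice had received saline and the other lipopolysaccharide (LPS), the glycolipid that coats Gram-negative bacteria, 24 h before, and the labels name no further allele or agent and give no dose. Each group had 4 tubes, each tube pooled the brains of 2 mice and gave 1 array, so 1 array stands for 2 animals and precision is set by having 4 arrays per group. The tubes are separate pools of animals. The bead sort selects on CD11b alone and does not separate microglia from infiltrating myeloid cells.

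Mitochondria keep a small genome of their own whose messenger RNAs encode hydrophobic core subunits of the respiratory chain and of ATP synthase. These messages are translated inside the organelle by the mitoribosome, which has a small subunit that reads the message and a large subunit that joins the amino acids. The ribosomal RNAs come from the mitochondrial genome, whereas all proteins of the mitoribosome are encoded in the nucleus, made in the cytosol and imported. Part of them descend from bacterial ribosomal proteins and the rest are found only in mitochondria.

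Mitochondrial ribosomal protein genes were higher after LPS in 75 of 78 cases by limma with an adjusted p under 0.05, and 0 were lower. In the background of all 22509 genes, 27.8% were higher and 21.5% were lower. The 3 genes that did not pass, Mrps23, Mrpl24 and Mrps6, are described further on. The median log2 change of the 78 genes was 0.65, a fold of 1.57, with a range of 0.11 to 1.16, and the median of all genes tested was 0.02. Of the 78 genes, 6 reached a 2-fold increase and 48 reached 1.5-fold. Of all 22509 genes, 805 were called higher with at least a 2-fold increase. A change of at least 1.5-fold upward was seen in 12.5% of all genes. The saline and LPS arrays did not overlap in 66 of the 78 genes, against 44.7% of all genes. All 78 genes were well above background on all 8 arrays, and among the 20331 genes for which that held, 30.1% were higher. The direction rested on the scaling for Mrpl24 and Mrps6, which had estimates below 0 when the 75th percentile was taken over detected probes and under quantile normalization, where Mrpl24 was called lower. With the array median signal as a covariate, 60 of 78 genes were higher and their median change was 0.43. In RNA of a whole sorted fraction, a change in the mix of cells and a change in RNA per cell cannot be told apart.

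**Figure D1:**
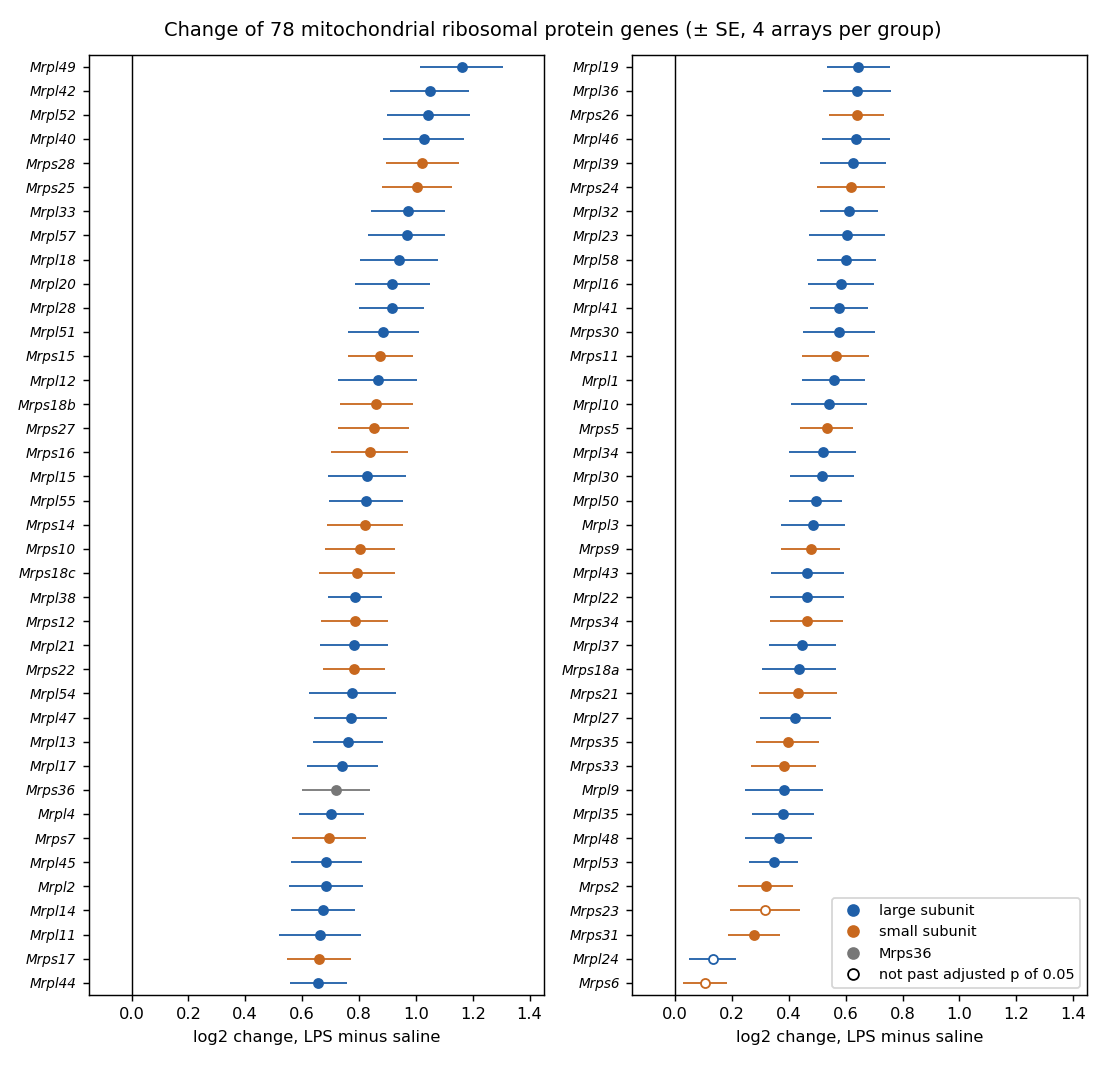
Each point is the log2 change (LPS minus saline) of 1 gene with its standard error, from 4 arrays per group, ordered by size in both panels, with large subunit proteins in blue, small subunit proteins in orange and Mrps36 in grey. Filled points passed an adjusted p of 0.05, which left 3 open points (Mrps23, Mrpl24 and Mrps6), and every point lies above 0, from 0.11 for Mrps6 to 1.16 for Mrpl49.

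Values below are log2 processed signal minus the array's 75th percentile, called the log2 level, so that 0 is a probe at the 75th percentile of its array, and a change is the LPS mean minus the saline mean ± standard error with n = 4 arrays per group. Levels of different genes come from different probes and do not rank the genes by amount of RNA. Mrpl49, a large subunit protein found only in mitochondria (probe at chr19:6054680-6054739, build mm9), had log2 levels of 1.06, 0.89, 0.75 and 0.93 on saline arrays 1 to 4 and 2.32, 2.17, 1.65 and 2.13 on LPS arrays 1 to 4. Every LPS array lay above every saline array, the change was 1.16 ± 0.15 (fold 2.24, adjusted p = 0.000976), and this was the highest of the 78. Mrpl42, another large subunit protein without a bacterial counterpart (chr10:94943468-94943527), had 3.86, 3.71, 3.51 and 3.68 after saline and 4.95, 4.83, 4.36 and 4.83 after LPS, a change of 1.05 ± 0.14 (adjusted p = 0.0011). Mrpl52 (chr14:55048507-55048566) is likewise specific to mitochondria and had 5.04, 4.98, 4.64 and 4.89 on the saline arrays and 6.12, 5.98, 5.56 and 6.07 on the LPS arrays (change 1.04 ± 0.15, adjusted p = 0.00124). In these 3 genes the groups were separated on all arrays, and LPS array 3 was the lowest of its group each time.

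Mrpl40, which sits in the central protuberance of the large subunit (chr16:18872311-18872370), had 2.52, 2.35, 2.13 and 2.29 after saline and 3.54, 3.38, 2.97 and 3.49 after LPS, a change of 1.03 ± 0.14 (adjusted p = 0.00122). Mrps28, a small subunit protein (chr3:8802222-8802281), had 3.15, 3.09, 2.79 and 2.96 after saline and 4.26, 4.05, 3.74 and 4.03 after LPS (change 1.02 ± 0.13, adjusted p = 0.000962). These genes and Mrps25, a small subunit protein with no bacterial counterpart (chr6:92124834-92124893), complete the group of 6 that were at least 2-fold higher. For Mrps25 the saline arrays read 3.05, 3.07, 2.77 and 2.85 and the LPS arrays 4.10, 3.97, 3.64 and 4.05, a change of 1.004 ± 0.12. The next 4 by size were Mrpl33 (0.97 ± 0.13), the counterpart of a small protein of bacterial ribosomes, Mrpl57 (0.97 ± 0.14), which is specific to mitochondria, Mrpl18 (0.94 ± 0.14), which belongs to the central protuberance, and Mrpl20 (0.92 ± 0.13), the counterpart of a bacterial protein that binds the large ribosomal RNA early in assembly. Their groups did not overlap, and their adjusted p-values were 0.00111, 0.00126, 0.00147 and 0.00137.

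The 3 probes with the most signal, those of Mrpl33, Mrpl52 and Mrpl51, also read more signal after LPS. Mrpl33 (chr5:31924925-31924984) read 5.18, 5.13, 4.86 and 4.99 on the saline arrays and 6.23, 6.10, 5.69 and 6.03 on the LPS arrays. Mrpl51, a large subunit protein of mitochondria only (chr6:125143362-125143421), read 4.84, 4.71, 4.56 and 4.69 after saline and 5.81, 5.66, 5.26 and 5.61 after LPS, and changed by 0.89 ± 0.12 (adjusted p = 0.00126). The representative probes lay on 17 chromosomes, with 11 genes on chromosome 11 and 8 on chromosome 17. The closest pair was Mrpl46 and Mrps11 on chromosome 7, on opposite strands, with 7.28 kb between their probes, and they changed by 0.64 and 0.56.

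The 3 genes that did not pass the test all had positive estimates. Mrps23, a small subunit protein of mitochondria only (chr11:88024940-88024999), had 3.63, 3.50, 3.32 and 3.38 after saline and 4.01, 3.78, 3.49 and 3.81 after LPS, so that LPS array 3 lay among the saline arrays. Its change was 0.32 ± 0.12 (95% confidence interval 0.03 to 0.60 before adjustment) with an adjusted p of 0.0615, and without LPS array 3 it was 0.41 with an adjusted p of 0.0116. Mrpl24, the counterpart of a bacterial protein that starts assembly of the large subunit and lies near the exit of the peptide tunnel (chr3:87727296-87727355), read 4.50, 4.53, 4.35 and 4.46 after saline and 4.72, 4.63, 4.45 and 4.57 after LPS. These groups overlapped, and its change of 0.13 ± 0.08 (95% confidence interval -0.06 to 0.32, adjusted p = 0.206) has an interval that includes 0. Mrps6, a small subunit protein with a bacterial counterpart (chr16:92112223-92112282), had 2.41, 2.24, 2.50 and 2.43 after saline and 2.55, 2.42, 2.50 and 2.52 after LPS, a change of 0.11 ± 0.08 (95% confidence interval -0.07 to 0.29, adjusted p = 0.285). For Mrps6 the lowest value of all was saline array 2, and LPS array 3 was not the lowest LPS array.

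Genes of both subunits were higher. No protein was measured. Of the genes of large subunit proteins, counted with Mrps18a and Mrps30 by their place in the structure, 50 of 51 were higher. Their median log2 change was 0.64. Of the genes of small subunit proteins, 24 of 26 were higher with a median of 0.65. Genes of proteins assigned here to a bacterial counterpart were higher in 43 of 45 cases (median 0.66). Genes of proteins assigned to the mitochondrion-specific class were higher in 31 of 32 (median 0.64). That class holds Mrps18a and Mrps18b, which are paralogues of a bacterial protein, so not every member lacks a bacterial relative. Mrpl55 was also counted in it, and both counts depend on such assignments. No test was made between these medians. All but 1 of the 6 genes with at least 2-fold increases belonged to the mitochondrion-specific class, the exception being Mrps28, a count made after the values were seen.

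For the stalk of the large subunit, where translation factors dock, the genes of 3 proteins were chosen, and the RNA of all 3 rose. Mrpl12, which forms the flexible part of the stalk and has been reported to bind the mitochondrial RNA polymerase (chr11:120349740-120349799), read 3.52, 3.42, 3.17 and 3.40 after saline and 4.45, 4.25, 3.88 and 4.40 after LPS, a change of 0.87 ± 0.14 (adjusted p = 0.00204). Mrpl10, which anchors Mrpl12, changed by 0.54 ± 0.13 and Mrpl11, at the stalk base, by 0.66 ± 0.14 (adjusted p = 0.0117 and 0.00676). The call of Mrpl10 ended in the covariate fit (0.28, adjusted p = 0.0862). Of the genes chosen for the central protuberance, which faces the small subunit, 5 of 5 were higher. Besides Mrpl40 and Mrpl18, given above, they were Mrpl38 at 0.79 ± 0.09, Mrpl46 at 0.64 ± 0.12 and Mrpl48 at 0.36 ± 0.12. The groups of Mrpl48 overlapped, at 4.22, 4.21, 3.86 and 4.04 after saline and 4.61, 4.53, 4.21 and 4.43 after LPS (adjusted p = 0.0342). Mrpl48 was called higher under 10 of the 21 alternatives. Its call ended without saline array 3 or 4 or LPS array 1, 2 or 4 (adjusted p = 0.0693 to 0.0894). Its change was 0.07 under quantile normalization, 0.10 with the mean of its probes and 0.098 with the covariate. Under each of these, 4 of 5 genes chosen for the site were called.

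Around the catalytic centre, where the peptide bond is made, the genes of 4 of 4 chosen proteins rose. The changes were 0.68 ± 0.13 for Mrpl2, 0.58 ± 0.12 for Mrpl16 and 0.49 ± 0.11 for Mrpl3. Mrpl27, whose bacterial counterpart reaches towards the catalytic site, rose by 0.42 ± 0.13 (adjusted p = 0.0237). The call of Mrpl27 held under 12 of the 21 alternatives. It ended without saline array 2, 3 or 4 or LPS array 1, 2 or 4 (adjusted p = 0.0544 to 0.0645), under quantile normalization (0.17), with the covariate (0.19) and with the mean of probes (0.20), which also ended the call of Mrpl3 (0.19, adjusted p = 0.0558). At the exit of the tunnel through which the new chain leaves, the genes of 3 of 4 chosen proteins rose. They were Mrpl45, which ties the mitoribosome to the inner membrane (0.68 ± 0.12), Mrpl23 (0.60 ± 0.13) and Mrpl22 (0.47 ± 0.13), and Mrpl24 did not pass. The call of Mrpl22 ended without saline array 3 or 4 or LPS array 2 (adjusted p = 0.0502 to 0.0558) and with the covariate (0.20, adjusted p = 0.15). Of the genes chosen for the head of the small subunit, 4 of 4 rose: Mrps14 by 0.82 ± 0.13, Mrps10 by 0.80 ± 0.12, Mrps7 by 0.69 ± 0.13 and Mrps9 by 0.48 ± 0.10. Medians of these sites ran from 0.53 for the tunnel exit and the catalytic centre through 0.66 for the stalk and 0.75 for the head to 0.79 for the central protuberance, with 3 to 5 genes each. The genes were a chosen part of the proteins of each site, so these medians do not rank the sites. Within sites the members spread more widely than the site medians did, as in the central protuberance with 0.36 and 1.03.

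Mammals have 3 paralogues of the bacterial small subunit protein S18, of which Mrps18c is the bacterial-type member, Mrps18b a small subunit protein of its own kind and Mrps18a a protein of the large subunit despite its name. All 3 were higher after LPS. Mrps18b (chr17:36047331-36047390) read 3.43, 3.34, 3.07 and 3.26 on the saline arrays and 4.33, 4.10, 3.84 and 4.28 on the LPS arrays, with a change of 0.86 ± 0.13 (adjusted p = 0.00155). Mrps18c (chr5:101233418-101233477) read 3.31, 3.20, 2.92 and 3.06 after saline and 4.10, 3.96, 3.58 and 4.02 after LPS, with a change of 0.79 ± 0.13 (adjusted p = 0.00238), and in neither gene did the groups overlap. Mrps18a (chr17:46265584-46265643) read 2.57, 2.40, 2.20 and 2.29 after saline and 3.01, 2.85, 2.49 and 2.86 after LPS, with LPS array 3 below saline array 1, and changed by 0.44 ± 0.13 (adjusted p = 0.0243). Its call ended without saline array 3 or 4 or without LPS array 1, 2 or 4 (adjusted p = 0.0616 to 0.0652), in the covariate fit (change 0.16, adjusted p = 0.18) and with the mean of its probes (0.16, adjusted p = 0.115).

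Mrps30, named for the small subunit but placed in the large one (chr13:119169203-119169262), read 1.86, 1.86, 1.60 and 1.70 after saline and 2.53, 2.42, 2.00 and 2.39 after LPS, without overlap, and changed by 0.58 ± 0.13 (adjusted p = 0.00703). Mrps36 was named as a ribosomal protein and is now counted as a subunit of the 2-oxoglutarate dehydrogenase complex of the citric acid cycle, so it is the one gene of the 78 that the name rule took in from outside the mitoribosome. Its representative probe joins sequences 2800 bases apart, from first to last base, at chr13:101506215-101509014 on the minus strand of mm9, and is shown because it covers both sides of an intron; the sequence has no capitals, since the position of the junction within it was not determined.
Mrps36 spliced probe: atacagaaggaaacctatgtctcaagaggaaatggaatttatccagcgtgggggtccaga
With this probe Mrps36 read 2.57, 2.62, 2.32 and 2.47 after saline and 3.40, 3.29, 2.93 and 3.23 after LPS, again without overlap, and changed by 0.72 ± 0.12 (adjusted p = 0.00221), which lies within the range of the ribosomal proteins. With the mean of its probes the change was 0.32 and did not pass (adjusted p = 0.0848).

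The arrays differed among themselves in a way that ran through nearly all of the 78 genes. Measured against each gene's saline mean, the median over the genes was 0.14, 0.06, -0.16 and -0.03 on saline arrays 1 to 4 and 0.81, 0.72, 0.36 and 0.73 on LPS arrays 1 to 4. LPS array 3 was thus the lowest of its group, and it was so in 76 of 78 genes, while it was the lowest LPS array in 48.4% of all genes tested. Saline array 1 was the highest saline array in 67 genes and saline array 3 the lowest in 68. At least 3 LPS arrays exceeded every saline array in all 78 genes, and the share of all genes for which this held was not computed. Groups without any overlap, in either direction, were found in 44.7% of all genes. The median standard deviation within a group was 0.14 for saline and 0.21 for LPS. Without LPS array 3 the number of genes called higher was 76 and the median change 0.74.

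**Figure D2:**
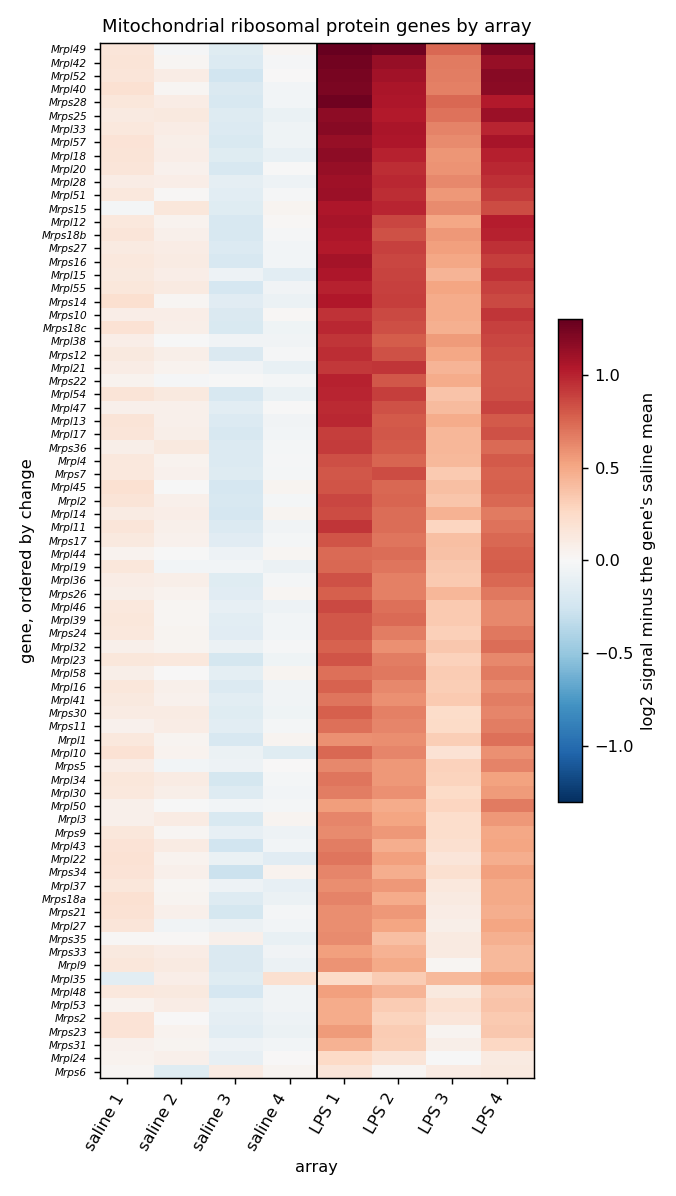
Rows are the 78 genes in order of their change, columns are the 8 arrays, and the colour is the log2 level minus the gene's saline mean, from -1.3 in blue to 1.3 in red. The LPS columns are red in nearly every row, with LPS array 3 paler than the other LPS arrays, and among the saline columns array 1 is faintly red and array 3 faintly blue.

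The median processed signal of an array, over all probes, moved with these values. It was 15.9, 15.5, 21.5 and 18.2 scanner units on saline arrays 1 to 4 and 11.7, 13.1, 17.3 and 13.8 on LPS arrays 1 to 4, so the dimmest array (LPS array 1) had the highest median over the 78 genes and the brightest (saline array 3) the lowest. The part of this in the result was not tested beyond the fit with the median signal as a covariate, given above. All 8 arrays lay on 1 slide, and each slide column held 1 array of each group. The median difference between the LPS and the saline array of a column was 0.69, 0.68, 0.51 and 0.75 in columns 1 to 4, and all 78 genes were higher on the LPS array in every column, against 38.8% of all genes. Within slide row 1 the median difference was 0.73 and within row 2 it was 0.59.

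**Figure D3:**
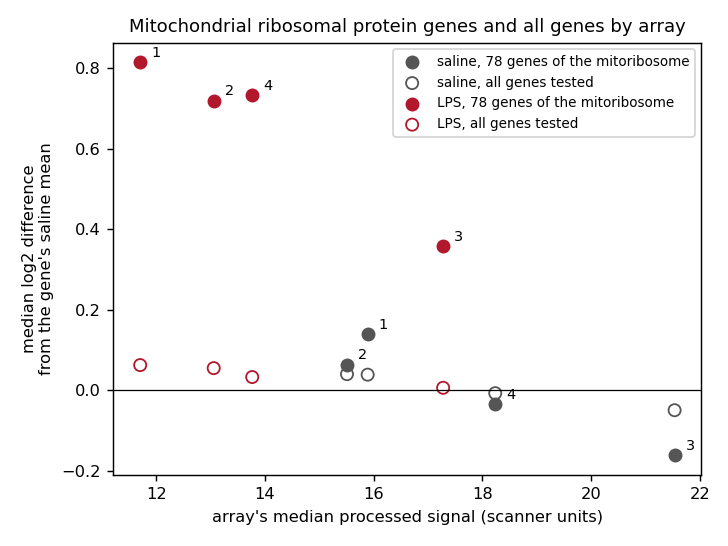
The horizontal axis is the median processed signal of an array in scanner units and the vertical axis the median log2 difference from each gene's saline mean, with filled points for the 78 genes, open points for all genes tested, grey for saline and red for LPS, numbered by array. The filled LPS points lie between 0.36 and 0.81 and the filled saline points between -0.16 and 0.14, and in each group the brightest array (number 3) has the lowest filled point, while the open points lie between -0.05 and 0.06.

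Most genes were read by a single probe (44 of 78), and 34 had several. Of the 124 probes, 118 passed the filter on dim probes, the other 6 being 5 designed on Ensembl transcripts and 1 on a cDNA or EST, and on their own 99 of these were higher and 0 lower by limma with p-values adjusted over all 35494 probes, of which 25.7% were higher and 21.8% lower. The brightest probe of each gene was higher in 75 of 78 cases, with a median change of 0.65. The further probes past the filter were higher in 24 of 40 cases, with a median of 0.36. The files give the transcript on which each probe was designed. Probes designed on RefSeq transcripts were higher in 96 of 105 cases, those designed on Ensembl transcripts in 3 of 11 and those designed on a cDNA or EST in 0 of 2. Probes whose span in the genome exceeds their own length, as when a probe crosses an intron, were higher in 14 of 16 cases. In 32 genes with several probes past the filter, all such probes were higher in 18, and in 7 genes (Mrpl24, Mrpl27, Mrpl3, Mrpl48, Mrps18a, Mrps33 and Mrps36) 1 probe had an estimate below 0. Of these 7 probes, 2 were designed on RefSeq transcripts. Kind of transcript ran together with signal. The further probes on Ensembl transcripts or a cDNA or EST that passed the filter had log2 levels below 0 on all arrays, except that of Mrpl22. Whether the probes differed because of the transcripts they read or because of low signal was not tested.

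**Figure D4:**
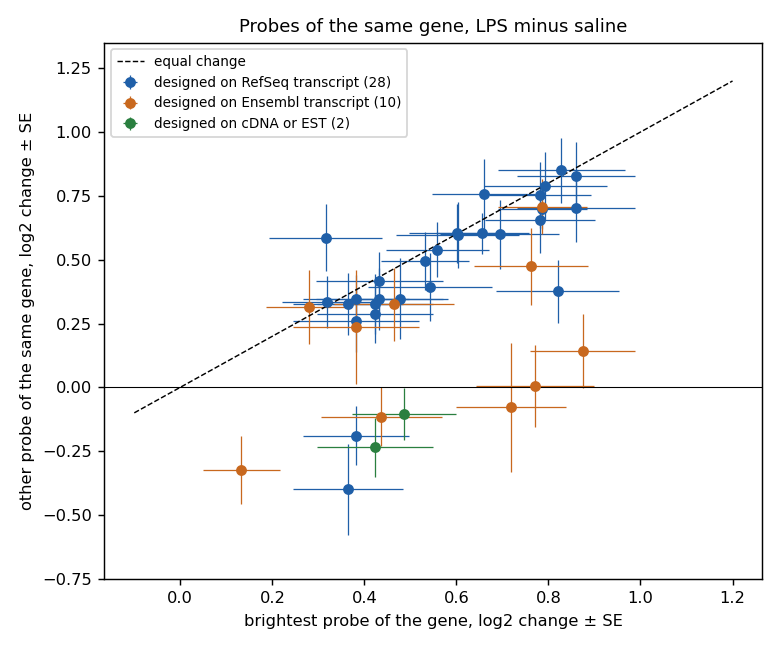
Each point is a further probe of a gene with several probes, with the log2 change of the gene's brightest probe on the horizontal axis and that of the further probe on the vertical axis, both with standard errors, coloured by the kind of transcript on which the probe was designed; the dashed line marks equal change. Most of the 28 probes designed on RefSeq transcripts lie near the line, whereas those on Ensembl transcripts (10) and on a cDNA or EST (2) mostly lie below it, and 7 points lie below 0.

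Mrpl27 shows the split within 1 gene, and of its 4 probes past the filter all but the brightest are therefore printed. They lie on the plus strand of chromosome 11 in mm9 and are in lower case because no part of them is singled out. The brightest probe, at chr11:94521320-94521379, gave the change of 0.42 ± 0.13 stated above. The probes at chr11:94521032-94521091 and chr11:94517857-94517916 were designed on a RefSeq transcript, and the probe at chr11:94515618-94515677 on a cDNA clone.
Mrpl27 probe 94521032: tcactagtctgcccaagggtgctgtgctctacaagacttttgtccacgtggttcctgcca
Mrpl27 probe 94517857: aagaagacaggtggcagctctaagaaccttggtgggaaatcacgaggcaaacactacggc
Mrpl27 cDNA probe 94515618: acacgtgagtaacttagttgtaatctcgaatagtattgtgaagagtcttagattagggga
The first read 2.76, 2.72, 2.68 and 2.61 after saline and 3.20, 3.12, 2.69 and 3.06 after LPS and changed by 0.33 ± 0.12 (adjusted p = 0.0484). The second changed by 0.29 ± 0.11 (adjusted p = 0.0694) and did not pass. The cDNA probe read -3.79, -3.70, -3.50 and -3.68 after saline and -4.01, -3.68, -3.81 and -4.12 after LPS, an overlap of the groups with a change of -0.24 ± 0.12 (adjusted p = 0.125). A similar pair was found in Mrps36, where the spliced probe rose and an Ensembl-transcript probe at chr13:101513386-101513445 had -0.08 ± 0.25 (adjusted p = 0.814), with saline values of -3.85, -4.16, -3.16 and -3.42 and LPS values of -3.81, -3.18, -3.96 and -3.95.

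In Mrps23 the order was the other way round. Its second probe spans 233 bases of the genome at chr11:88023381-88023613 on the plus strand, across an intron, and is shown because it passed the test where the brightest probe did not.
Mrps23 spliced probe: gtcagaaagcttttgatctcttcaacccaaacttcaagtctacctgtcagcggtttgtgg
It read 0.40, 0.30, 0.14 and 0.18 after saline and 1.03, 0.86, 0.48 and 0.98 after LPS, with no overlap, and changed by 0.59 ± 0.13 (adjusted p = 0.00776), against 0.32 for the brightest probe. In Mrpl24 both probes failed the test, with 0.13 for the brightest and -0.32 for an Ensembl-transcript probe at chr3:87724044-87724103.

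Since the genes moved together, the letters around their transcription starts were searched in RefSeq promoters of assembly GRCm38.p6. The set held 75 promoters of 69 of the 78 genes, each from 250 bases before to 50 bases after the start. Motifs were searched as plain letters on both strands. The core CCGGAAG, read by the ETS family that includes GABP, an activator of many genes of mitochondrial proteins, was in 34.7% of the 75 promoters, in 14.2% of the 17014 promoters of genes tested and in 8.86% of all 32851 promoters. The YY1 motif AANATGGCG was in 14.7%, 3.95% and 2.38%. Among the 75 promoters its match lay before the start only in Mrpl36 and Mrps11, and after the start in the others. The palindromic 10-base NRF1 motif (the letters in capitals in the Mrpl39 sequence further on), named for a factor known for genes of the respiratory chain, was in 4% (3 promoters), 1.62% and 0.971%. The E-box CACGTG, which Myc and related factors read, was in 9.33%, 9.09% and 7.15%, and the GC box GGGCGGG in 42.7%, 40.3% and 25.6%. Some genes count more than once here, as Mrpl2, whose overlapping promoters hold the same E-box. The E-box was in 7 promoters of 5 genes and the GC box in 32 promoters of 29 genes. Any of the ETS, NRF1 and YY1 letters was in 48% of the 75 promoters against 18.6% of those of genes tested. The shares were not tested, a match is not a bound site, and no binding was measured here.

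For each of those 3 motifs the upstream part of the promoter of the gene with the highest change among those with a match before the start is printed, 250 bases up to the start on the gene's strand, with the match in capitals. The matches are to CCGGAAG in Mrpl52 (chr14:54426659-54426908, plus strand), AANATGGCG in Mrpl36 (chr13:73330759-73331008, plus strand) and the NRF1 motif in Mrpl39 (chr16:84735245-84735494, minus strand), the first 2 on the opposite strand.
Mrpl52 upstream: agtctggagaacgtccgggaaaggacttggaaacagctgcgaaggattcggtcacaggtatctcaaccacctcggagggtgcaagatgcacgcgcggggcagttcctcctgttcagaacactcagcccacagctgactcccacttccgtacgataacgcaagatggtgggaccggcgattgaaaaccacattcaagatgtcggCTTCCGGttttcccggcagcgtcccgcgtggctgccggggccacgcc
Mrpl36 upstream: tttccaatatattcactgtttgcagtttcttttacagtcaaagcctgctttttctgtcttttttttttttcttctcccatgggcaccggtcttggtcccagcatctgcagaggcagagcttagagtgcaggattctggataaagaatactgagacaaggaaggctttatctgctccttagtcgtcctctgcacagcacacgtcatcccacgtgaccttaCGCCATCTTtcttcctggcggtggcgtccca
Mrpl39 upstream: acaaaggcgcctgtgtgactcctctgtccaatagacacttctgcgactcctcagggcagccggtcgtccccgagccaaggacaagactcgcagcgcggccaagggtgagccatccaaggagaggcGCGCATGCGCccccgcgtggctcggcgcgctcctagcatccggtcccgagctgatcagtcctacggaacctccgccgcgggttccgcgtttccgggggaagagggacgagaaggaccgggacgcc
The first base of the match lies 47 bases before the start in Mrpl52, 31 in Mrpl36 and 125 in Mrpl39. These genes changed by 1.04 ± 0.15, 0.64 ± 0.12 and 0.63 ± 0.12. Of the 3 promoters of the genes that did not pass the test, 1 held an ETS match.

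Further lists covered the rest of the mitochondrial translation system. The genes of the 5 further mitoribosomal proteins that carry other symbols all rose, with a median of 0.71. Those of the small subunit were Dap3 (0.71 ± 0.10), which binds GTP, Ptcd3 (0.62 ± 0.10), Aurkaip1 (0.71 ± 0.15) and Chchd1 (0.94 ± 0.15). The gene of the large subunit was Gadd45gip1 (0.84 ± 0.15). Chchd1 read 4.42, 4.47, 4.07 and 4.37 after saline and 5.44, 5.40, 4.88 and 5.37 after LPS, with no overlap of the groups. Of 18 translation factors and helpers, 12 were higher and 1 lower, with a median of 0.46. Slirp, which stabilises mitochondrial messenger RNA, rose by 0.96 ± 0.14 and Taco1, which activates translation of the COX1 message, by 0.95 ± 0.10 (adjusted p = 0.00156 and 0.000597). The 1 lower gene was Mtif2, the mitochondrial initiation factor that brings the initiator transfer RNA, at 5.88, 6.01, 6.07 and 5.95 after saline and 5.70, 5.86, 5.75 and 5.72 after LPS (change -0.22 ± 0.07, adjusted p = 0.0365). The groups of Mtif2 did not overlap, but the mean of its probes gave a change of 0.10 that did not pass the test, so its direction depended on the probe. Under scaling by array medians it was at -0.0069, and its call ended without saline array 2, 3 or 4 or LPS array 1 or 4 (adjusted p = 0.0736 to 0.0926).

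Of 29 genes for assembly of the mitoribosome and modification of its RNA, 16 were higher and 0 lower (median 0.28), among them Rcc1l (0.62 ± 0.12) and Malsu1 (0.60 ± 0.12), which act in maturation of the large subunit. With the 75th percentile over detected probes 11 were higher and 1 lower (median 0.12), under quantile normalization 13 and 2 (median 0.16), and with the covariate 10 and 0 (median 0.16). Of 15 genes for transcription, processing and replication of mitochondrial DNA, 6 were higher and 0 lower (median 0.27), led by Elac2, which cuts transfer RNA from precursors (0.66 ± 0.10), and the topoisomerase Top1mt (0.57 ± 0.12). Over detected probes the median was 0.11, and with array weights 10 were higher and 1 lower. The messages that the mitoribosome translates were read by probes for 9 genes on the mitochondrial chromosome, a list made after their values were seen. Only COX1, a subunit of cytochrome c oxidase (0.53 ± 0.11), and ND6, a subunit of complex I (0.48 ± 0.11), passed the test, and the median was 0.07. ND4, ND5 and CYTB, further respiratory subunits, had -0.02 ± 0.10, -0.11 ± 0.09 and 0.04 ± 0.09, with adjusted p-values of 0.846, 0.312 and 0.746. Under quantile normalization 1 of these 9 was higher, 6 were lower and the median was -0.22, with COX1 at 0.25 and no longer past the test, so no direction is given for the list.

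Nuclear genes of complex I, the respiratory enzyme that takes part of its core subunits from the mitoribosome, had nearly the same median as the 78 genes, 0.64 against 0.65, with 36 of 38 higher and 0 lower, led by the accessory subunits Ndufb1 (0.99 ± 0.14) and Ndufa12 (0.93 ± 0.13). Genes of cytosolic ribosomal proteins, which build the ribosomes of the cytosol, were higher in 49 of 82 cases and lower in 0, with a median of 0.33. Rps27l (0.97 ± 0.13), a target of p53, and Rps2 (0.88 ± 0.14) rose most. Under quantile normalization 20 of these 82 were higher and 4 lower, with a median of 0.05, and with the covariate 18 were higher with a median of 0.09. The number higher was 22 without LPS array 1, 22 without LPS array 2, 24 without LPS array 4, 25 without saline array 3 and 25 without saline array 4, against 72 without LPS array 3. It was 31 over detected probes, 32 with no filter on dim probes and 76 with array weights or slide column as a block. For complex I the quantile counts were 31 higher and 1 lower (median 0.31), and for the 78 genes 68 higher and 1 lower (median 0.48). The differences between the lists were not tested. LPS array 3 was the lowest LPS array in 38 of 38 genes of complex I and in 81 of 82 cytosolic ribosomal protein genes.

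**Figure D5:**
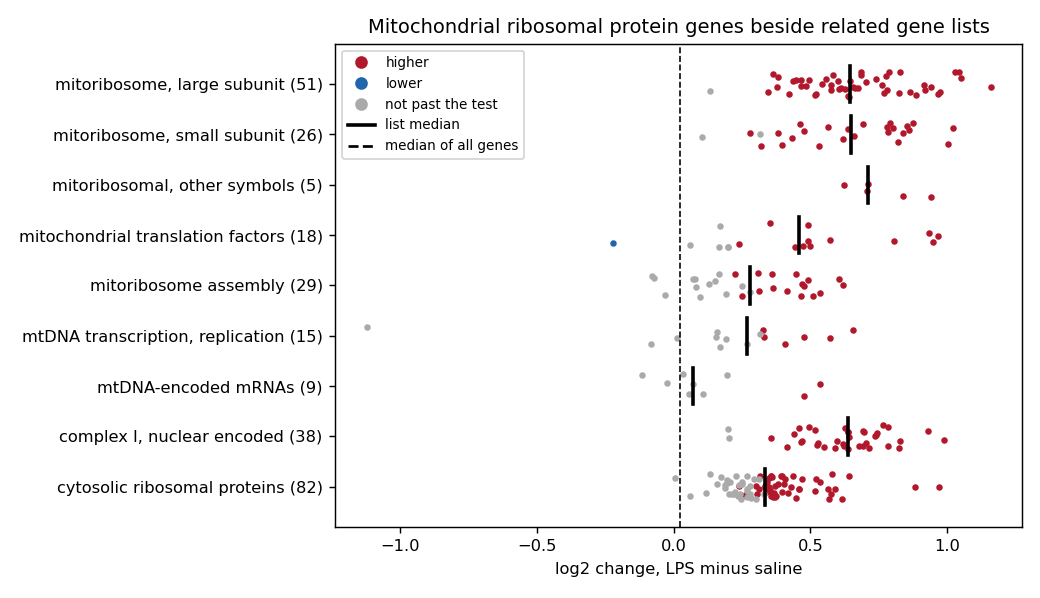
Each point is the log2 change (LPS minus saline) of 1 gene in the list named on the left with its number of genes, red where higher, blue where lower and grey where not past the test, with the list median as a black bar and the median of all genes (0.02) as a dashed line. Large and small subunit proteins and complex I centre near 0.64, cytosolic ribosomal proteins at 0.33 and messages of mitochondrial DNA at 0.07, with Mtif2 as the 1 blue point.

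Markers of other cells and of dividing cells moved between the same groups. The microglia list stayed abundant, with a summed linear signal relative to the 75th percentile of 1664 to 1988 after saline and 1742 to 2027 after LPS (2 higher and 4 lower of 10). Monocyte markers were higher in 5 of 6 genes, led by Ly6c2 (2.11 ± 0.20) and Plac8 (2.06 ± 0.17), with a summed signal of 12.4 to 16.6 after saline and 44.2 to 78.5 after LPS, and Vcan had an estimate of -0.13. Neutrophil markers were higher in 2 of 10, S100a8 (1.59 ± 0.29) and S100a9 (1.38 ± 0.29), and the other 8 did not pass, with 4 of the 10 estimates above 0, a list median of -0.05 and the lowest for Camp (-0.89 ± 0.44, adjusted p = 0.126). Their summed signal was 71.8 to 169 after saline and 169 to 299 after LPS. Without saline array 4 the list had 4 higher and a median of 0.24. All 20 proliferation genes were higher (median 1.01), with Bub1, a kinase of the spindle checkpoint, at 1.21 ± 0.14 and Mcm5, part of the replicative helicase, at 1.19 ± 0.17, and LPS array 3 was the lowest LPS array in all 20. Astrocyte markers were lower in 5 of 6 genes (14.1 to 18.03 after saline, 7.69 to 9.79 after LPS), oligodendrocyte markers in 4 of 7 (12.05 to 12.98, then 10.01 to 10.9), neuron markers in 1 of 5 (11.2 to 15.8, then 7.51 to 13.2), endothelial markers in 3 of 5 (16.7 to 23.1, then 12.2 to 15.4; 1 to 5 under the alternatives) and erythroid markers in 4 of 4 measured (13.2 to 29.3, then 5.44 to 8.40). The part of these cells in the increase of the mitochondrial ribosomal protein genes was not tested.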

How the data were processed

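Per the labels' protocols, 50 ng of total RNA per tube was labelled with Cy3 and read on 1-colour Agilent arrays. Per the file headers and the submitters' processing notes, the scanned images were read with Agilent Feature Extraction 12.0.3.1, and the deposited scanner files hold intensity values whose processed signal had its background removed by spatial detrending. The authors' deposited log2 values, set against the scanner values, turned out to be scaled to the 75th percentile of each array and centred per probe (column medians -0.07 to 0.08), and why is not stated. The flags for spots well above background and for outliers are other columns of the deposited files.

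Outlier spots were left out, spots of a probe averaged, and 6 probes with no usable spot left out. No spot was saturated. Log2 processed signal minus the array's 75th percentile was analysed. A probe was kept if it was well above background on 4 or more of the 8 arrays (35494 probes), and the brightest probe stood for its gene (22509 genes). Members kept the file's gene name, and 105 of 124 probes also matched a RefSeq accession of assembly GRCm38.p6. The test was limma 3.58.1 (lmFit, eBayes; R 4.3.3), and p-values were adjusted over all genes by Benjamini-Hochberg, at a threshold of 0.05. Probe coordinates are those of the files (mm9), for which no annotation was used here, so exon and UTR are not stated. A probe was taken to cross an intron where its span in the genome exceeded its length.

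The members, roles and lists were chosen with earlier results of these data known. The named genes were the 10 largest increases and decreases past the test (no decrease passed), the paralogues Mrps18a to Mrps18c, Mrps30, Mrps36, Mrpl12, the 3 brightest genes, and up to 2 per direction of each other list, of which only monocyte and neutrophil genes are named among the marker lists (with Vcan and Camp added after their values were seen). Added were the genes chosen for each structural site, the 3 that did not pass, all members of the list of 5 mitoribosomal proteins with other symbols, and ND4, ND5 and CYTB. In a simulation drawn from the 22509 genes' means and spreads, limma recovered 13 of 50 genes changed by 0.5 between saline and LPS, 31 of 50 changed by 1, 47 of 50 changed by 2 and 50 of 50 changed by 4, with 12 unchanged genes called. No other genes were changed in the simulation, whereas 49.3% of all genes were called in the data. Each gene was drawn on its own, without shifts of an array shared between genes. The simulation therefore checks the procedure and does not give the share of changed genes found in these data. Alternatives covered scaling, background, filter, probe choice, variance, array weights, slide position, a signal covariate, the deposited table and the omission of single arrays. Figures used matplotlib 3.10.9 (Python 3.11.15).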

Additional observations from a re-analysis of the deposited data

Results flagged for a closer look

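Examined were the 10 largest increases, Mrps18a to Mrps18c, Mrps30, Mrps36, Mrpl12, the 3 brightest genes and the 3 that did not pass. In these, 40 groups of 4 arrays were searched for a single array far from the rest. Chance gives about 1 in 20 such groups, and 1 stood out. The other genes given with values were not examined. For Mrpl57, the LPS array 3 log2 level was 4.94, while the other LPS arrays lay between 5.37 and 5.45. This array was the lowest LPS array in 76 of 78 mitochondrial ribosomal protein genes.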

How the results depend on the processing

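The number of mitochondrial ribosomal protein genes called higher ran from 60 to 77 of 78 under the 21 alternatives fitted gene by gene and the median change from 0.43 to 0.86, and 58 genes were called higher under every one of these. Each probe fitted on its own gave 99 of 118 higher. Scaled to each array's median, the median change was 0.86 and that of all genes 0.24. With the median signal as a covariate it was 0.43. The 78 genes exceeded the median of all genes by 0.63, which scaling by a percentile or median cannot alter, and by 0.48 under quantile normalization, where 1 gene (Mrpl24) was called lower. The excess was 0.53 with another background correction and lowest, at 0.42, with the covariate. Leaving out each array gave 64 to 76 genes higher, 0 lower and medians of 0.60 to 0.74. Mrpl24 was at -0.022 over detected probes, -0.17 under quantile normalization, -0.096 with the mean of its probes and -0.014 with the covariate. Mrps6 was at -0.049 over detected probes and -0.063 under quantile normalization, and Mtif2 at 0.10 with the mean of its probes. The mean of probes also ended the calls of Mrps18a (0.16) and Mrps36 (0.32). The cause was not tested. The labels give no replicate numbers that pair samples. Pairing by place on the slide, with slide column as a block, gave 76 genes higher.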
